A study of Mus musculus with 72 samples.

Results

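The genes described here are 10 that carry calcium in and out of the sarcoplasmic reticulum (SR) of the heart muscle cell: Ryr2, Pln, Atp2a1, Atp2a2, Slc8a1, Slc8a2, Casq1, Casq2, Trdn and Jph2. They were chosen by name for their known roles, with earlier results of these data known, from 24237 genes in the table. All 10 were counted in every library. Together they took 1.62 to 3.65% of the counts of a library (median 2.63%). RNA was sequenced from the right atrium, left atrium and ventricle of adult C57BL/6J mice, 9 months old as labelled, of both sexes. The 4 conditions were naïve Ahr+/+ mice, Ahr-/- mice, and Ahr+/+ mice exposed in utero to a high or low dose of TCDD. The high dose was 1 μg/kg and the low dose 0.1 μg/kg, by gavage of the mother. Ahr-/- mice lack the aryl hydrocarbon receptor (AHR) in all cells. Per the study's methods, mothers of naïve mice received the vehicle, corn oil, by gavage, and mothers of Ahr-/- mice were left untreated. Comparisons of Ahr-/- with naïve mice therefore also differ in gavage and vehicle. Ahr+/+ and Ahr-/- mice came from separate crosses, not from the same litters. TCDD, or dioxin, is a potent ligand of the AHR, a transcription factor that responds to foreign and endogenous small molecules. The labels write TCDD for every library, naïve and Ahr-/- included, so the condition was read from the group named in each label. They write the doses as 1000 and 100, read here as 1 and 0.1 μg/kg after the study's methods. Per those methods the mothers of Ahr+/+ mice were dosed on several embryo days, and the mice were somewhat older than labelled.

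Each heartbeat begins with calcium that enters through surface channels and opens RYR2, the release channel of the SR. Triadin (Trdn) and junctophilin 2 (Jph2) hold the release unit together and close to the surface membrane, and calsequestrin 2 (Casq2) stores calcium inside the SR and tunes the channel. SERCA2a (Atp2a2) pumps calcium back and phospholamban (Pln) brakes that pump, while the sodium-calcium exchanger NCX1 (Slc8a1) sends out of the cell what had entered. Atp2a1 encodes SERCA1 and Casq1 calsequestrin 1, the pump and the store of fast skeletal muscle, and Slc8a2 encodes NCX2, best known from brain.

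There were 72 libraries in 24 groups of 3 mice, with 11873417 to 28789382 counts each. Each heart gave 3 chambers, but the labels do not link them, so chambers were treated as independent. Naïve libraries of a sex and chamber served as the control of all 3 other conditions, so those comparisons share them. Ahr itself stood at 2.00 to 9.23 CPM in the Ahr-/- libraries (median 5.05) and at 8.59 to 30.8 in the naïve ones (median 14.2), ranges that met at their ends. Levels in this text are of RNA, also where a gene is called by the name of its protein. CPM is a gene's count as parts per mega-count of its library, TMM-scaled so that libraries can be compared. Exceptions, scaled by library size alone, are Ahr above, Myl4 values that flag a library, and the marker lists read below. In 19 libraries marker genes went against the label: Xist and Y-linked genes read as the other sex in 8, and Myl4, an atrial myosin light chain, lay on the wrong side of 100 CPM for the chamber in 15, with 4 in both. They fall in 14 of the 24 groups, and 12 of them are among the 24 libraries numbered 49 and up. There the same labels failed in all 4 conditions: the 4 female right atria read as male, the 4 male left atria had Myl4 under 100 CPM, and the 4 male ventricles read as female with Myl4 above 100 CPM. The other 12 of that series passed, but these markers do not tell right from left atrium, so the side of an atrium was not checked. The annotation used here left some genes without a symbol. The most abundant of these took 2.68 to 14.0% of the counts in the later series, against 0.125 to 5.75% in libraries 1 to 48. Every group holds 2 libraries of the first series and 1 of the later. Libraries with markers against the label are called in doubt below, and the comparisons that use them are named. The labels call the tissue cardiomyocytes, but dissected chambers also hold other cells, and in such bulk RNA fewer cells of a type and less RNA per cell cannot be told apart.

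The starts of the 4 genes that later passed the test in the high-dose female ventricle are shown first, because AHR acts by binding DNA at the core GCGTG. Each is the 250 bases before the RefSeq start (build GRCm38.p6), 5′ to 3′ on the gene's strand, in lower case with GCGTG or its reverse complement CACGC in capitals.
Casq2, chr3:102086165-102086414, plus strand: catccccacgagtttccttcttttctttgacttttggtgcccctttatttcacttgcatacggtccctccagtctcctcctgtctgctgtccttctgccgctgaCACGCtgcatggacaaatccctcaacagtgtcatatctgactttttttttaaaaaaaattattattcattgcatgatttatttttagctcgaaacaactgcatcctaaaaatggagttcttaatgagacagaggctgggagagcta
Ryr2, chr13:12106946-12107195, minus strand: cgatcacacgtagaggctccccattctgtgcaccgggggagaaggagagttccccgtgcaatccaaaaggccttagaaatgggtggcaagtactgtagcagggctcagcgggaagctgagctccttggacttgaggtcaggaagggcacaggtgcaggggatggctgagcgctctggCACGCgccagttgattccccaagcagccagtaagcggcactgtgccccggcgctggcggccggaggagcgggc
Slc8a1, chr17:81738388-81738637, minus strand: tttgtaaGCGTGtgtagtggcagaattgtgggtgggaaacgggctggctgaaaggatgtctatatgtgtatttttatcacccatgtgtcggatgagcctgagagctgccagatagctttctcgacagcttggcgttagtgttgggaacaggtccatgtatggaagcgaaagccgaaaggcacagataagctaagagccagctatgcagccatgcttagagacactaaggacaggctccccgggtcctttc
Pln, chr10:53337436-53337685, plus strand: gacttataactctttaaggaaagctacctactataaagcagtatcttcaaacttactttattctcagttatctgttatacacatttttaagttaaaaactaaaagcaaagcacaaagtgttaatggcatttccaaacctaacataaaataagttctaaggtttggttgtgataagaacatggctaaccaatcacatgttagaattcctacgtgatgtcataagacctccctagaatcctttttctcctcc
The core lay 146 bases before the start in Casq2, 73 in Ryr2 and 243 in Slc8a1, and the Pln window has none. Searched on both strands, the core occurs in 28.2% of all 32851 RefSeq windows of this length. RefSeq windows were read for 8 of the 10 genes, all but Atp2a2 and Trdn. Of those not printed Slc8a2 held the core, 69 bases before its start, and Atp2a1, Casq1 and Jph2 did not. The TATA motif TATAAA, in 12.4% of windows, occurred among these 8 only in Pln, 219 bases before the start, and the MEF2 motif, in 2.92% of windows, only in Casq2, 69 bases before it. A match of letters is a description and not a binding site. Which start the heart uses was not checked.

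The 10 genes lie on 8 chromosomes of mm10 (GRCm38). Release and storage genes are Ryr2 (chr13:11553099-12106945), Casq2 (chr3:102086415-102146514), Trdn (chr10:33083483-33476709), Jph2 (chr2:163336242-163398049) and Casq1 (chr1:172209894-172219895). Uptake and its brake are Atp2a2 (chr5:122453513-122502225), Atp2a1 (chr7:126445858-126463103) and Pln (chr10:53337686-53345999), and the exchangers are Slc8a1 (chr17:81373105-81738387) and Slc8a2 (chr7:16127592-16161063). The study's methods say that reads over each gene's coding region were counted, yet Xist, which has none, carries counts, so it is not settled which bases a count covers. Levels per length are therefore given per kilobase of exon and per kilobase of coding sequence (GENCODE M21).

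The isoforms of heart muscle stood far above those of skeletal muscle and brain on either length. Per kilobase of exon, the median over the 72 libraries was 3148 CPM per kb for Atp2a2, 1684 for Pln, 521 for Casq2, 131 for Ryr2, 64.1 for Jph2, 51.1 for Trdn and 32.3 for Slc8a1. Casq1 followed at 6.47, Atp2a1 at 0.759 and Slc8a2 at 0.174 CPM per kb. Per kilobase of coding sequence, which is 0.156 kb in Pln, the order of the heart isoforms changed: Pln stood at 29784 CPM per kb, Atp2a2 at 5285, Casq2 at 1065, Slc8a1 at 203, Trdn at 181, Ryr2 at 159 and Jph2 at 131. Casq1, Atp2a1 and Slc8a2 were again the lowest, at 9.84, 0.885 and 0.332. By mean CPM Atp2a2 ranked 3 of all genes, Pln 14, Ryr2 31 and Casq2 73, against 7301 for Casq1, 11285 for Atp2a1 and 13839 for Slc8a2. The pump and its brake were the 2 most abundant messages of the group on either length, in an order that depends on it, and the fast-muscle pump was a trace beside SERCA2a: the ratio Atp2a1 to Atp2a2 per kilobase of exon had a median of 0.0518% in the right atrium, 0.0425% in the left atrium and 0.00758% in the ventricle. NCX2 stood to NCX1 at 0.603, 0.600 and 0.418% per kilobase of exon, and at 0.182, 0.181 and 0.126% per kilobase of coding sequence.

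Across libraries, not per length, Atp2a2 ran from 9289 to 25149 CPM (median 16612), Pln from 663 to 9909 (4646), Ryr2 from 1194 to 3641 (2383) and Casq2 from 733 to 2291 (1336). Slc8a1 ran from 347 to 1089 CPM (median 601), Trdn from 186 to 647 (401) and Jph2 from 150 to 502 (273). Atp2a2, Ryr2, Casq2, Slc8a1, Trdn and Jph2 therefore stayed within a few-fold over all chambers and conditions, and Pln did not. Casq1 ran from 1.02 to 90.0 CPM (median 12.0), Atp2a1 from 0.114 to 24.7 (2.64) and Slc8a2 from 0.118 to 4.03 (0.916), with Atp2a1 and Slc8a2 on as few as 2 counts in a library. The highest Casq1 value came from a naïve female right atrium library in doubt (library 50). Among the 24 groups the order of means was mostly unresolved: neighbouring groups overlapped in 22 of 23 steps for Ryr2 and in all 23 for the other 9 genes. The extremes were apart. Ryr2 stood at 3435 ± 286 CPM (SD, n = 3) in the naïve female ventricle and 1727 ± 286 in the high-dose male ventricle. Pln stood at 8815 ± 340 in the naïve female ventricle and 2528 ± 1281 in the Ahr-/- female right atrium. Each of these groups holds a library in doubt. They are library 35 in the naïve female ventricle, 65 in the high-dose male ventricle and 56 in the Ahr-/- female right atrium.

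**Figure D1:**
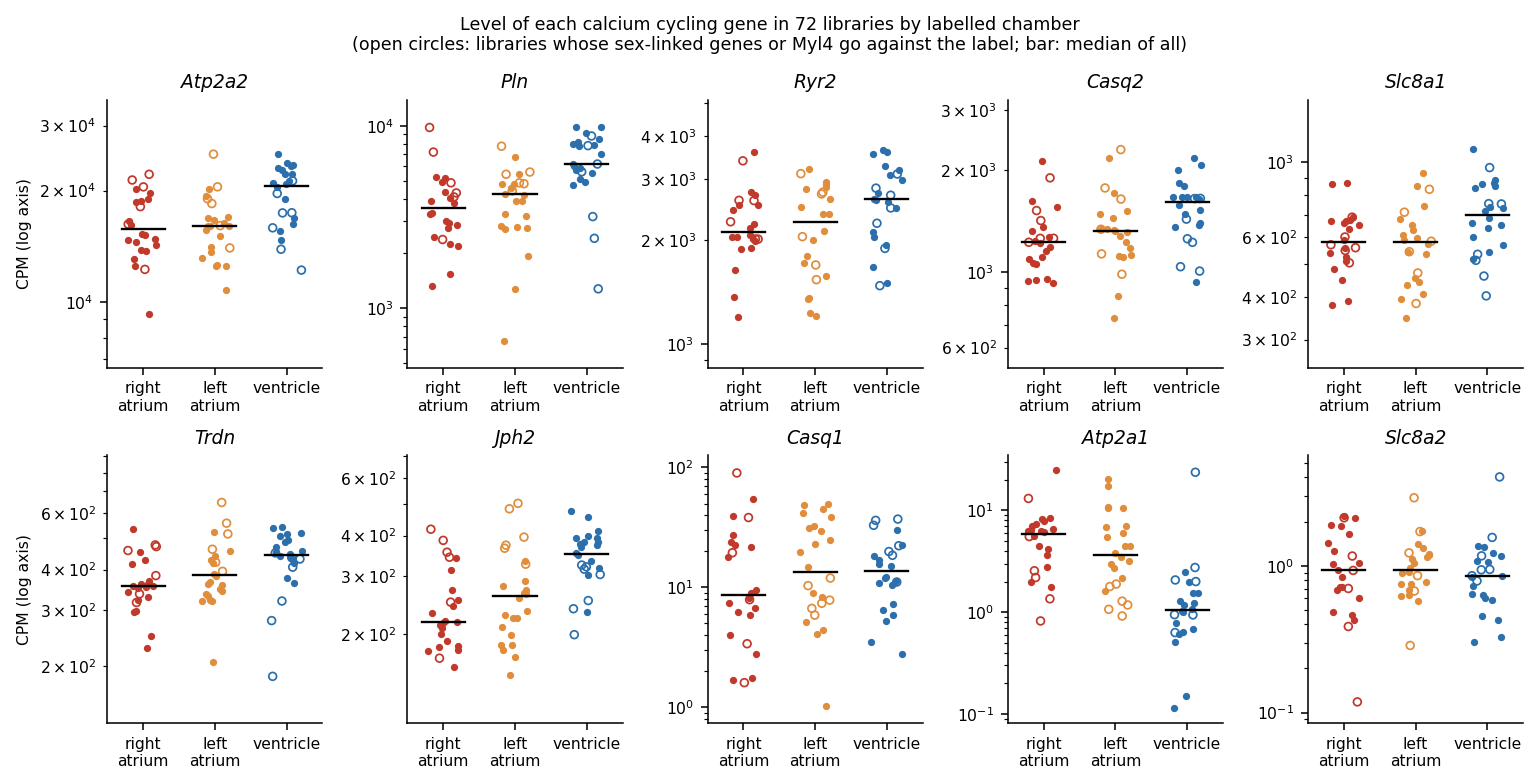
Level of each of the 10 genes in the 72 libraries by chamber, in CPM on a log axis, with a bar at the median and open circles for libraries in doubt. Pln and Jph2 have higher medians in the ventricle, Atp2a1 has higher medians in both atria, and the chambers overlap for every gene.

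Chambers differed in the brake, the fast pump and Jph2. Pln, whose protein holds SERCA2a back, had medians of 3567 CPM in the right atrium, 4214 in the left atrium and 6190 in the ventricle (24 libraries each). Atp2a1 ran the other way, at 5.89, 3.66 and 1.06 CPM, and Jph2 went with Pln, at 218, 262 and 351 CPM. The ranges overlapped for all 3 genes. In edgeR's quasi-likelihood test over the 72 libraries, with each condition and sex as a class, 6 of the 10 genes passed an adjusted p of 0.05 between right atrium and ventricle, 1 higher and 5 lower in the atrium. Of all genes tested 31.8% passed, 17.1% higher and 14.7% lower, and between left atrium and ventricle 18.9% passed, 11.1% higher and 7.77% lower. In that second contrast 5 of the 10 genes passed, 1 higher and 4 lower in the atrium.

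Atp2a1 was higher in the right atrium than in the ventricle by 1.92 ± 0.367 (log2 fold change ± SE, edgeR adjusted p = 9.43e-05) and in the left atrium by 1.64 ± 0.366 (adjusted p = 0.00217). Pln was lower in the right atrium, at -0.76 ± 0.191 (adjusted p = 0.00175), and in the left atrium, at -0.66 (adjusted p = 0.0119). Jph2 fell short of the ventricle by the same pattern, at -0.48 ± 0.117 (adjusted p = 0.00144) and -0.32 (adjusted p = 0.0473). The SERCA2a pump itself differed less: Atp2a2 stood at -0.26 (adjusted p = 0.0195) and -0.27 (adjusted p = 0.0266). The remaining calls were Casq2, at -0.27 (adjusted p = 0.0235), and Trdn, at -0.23 (adjusted p = 0.0415), for the right atrium, and Slc8a1, at -0.27 (adjusted p = 0.0347), for the left. Ryr2, at -0.19 and -0.24, Casq1, at 0.16 and 0.39, and Slc8a2, at 0.14 and 0.09, passed in neither contrast. Right and left atrium were not told apart for any of the 10 genes (0 called at adjusted p under 0.05 in edgeR, all at 0.9996), and 0.00632% of all genes passed there.

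The ratio of the brake to its pump was also higher in the ventricle, as a description with no test. Per kilobase of exon, Pln stood at a median of 38.5% of Atp2a2 in the right atrium, 47.4% in the left atrium and 67.7% in the ventricle, and per kilobase of coding sequence at 406, 499.6 and 713%. Sarcolipin (Sln), the atrial relative of phospholamban and no member of the 10, was chosen for mention after its values were seen: it was at 11.0% of Pln per kilobase of exon in the right atrium, 7.14% in the left and 0.00428% in the ventricle, and its log2 difference from the ventricle was 4.07 and 3.42. Casq2 stood at 390, 409 and 440% of Ryr2 and Casq1 at 1.04, 1.53 and 1.15% of Casq2, both per kilobase of exon.

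In libraries whose Myl4 went against the chamber label, Atp2a1 lay toward the level of the other chambers. In the 7 ventricle-labelled libraries with Myl4 above 100 CPM, Atp2a1 ran from 0.631 to 23.6 CPM (median 2.00), against 0.114 to 2.48 (median 1.04) in the other 17. In the 6 left atrium libraries with Myl4 under 100 CPM it ran from 0.918 to 1.89 (median 1.23), against 1.62 to 20.1 (median 4.98) in the other 18. Over the 72 libraries log2 Atp2a1 correlated with log2 Myl4 at r = 0.74, Jph2 with Myl4 at -0.75, and Pln with Myl4 at -0.66 and with Myl2, the ventricular light chain, at 0.76. These correlations are descriptions, since the libraries share chambers and depth. Without the 19 libraries in doubt, which Myl4 helped to choose, 8 genes passed between right atrium and ventricle (Atp2a1 at 2.52, Pln at -1.14, Jph2 at -0.81) and 9 between left atrium and ventricle (Atp2a1 at 2.43, Pln at -1.02, Jph2 at -0.70), with 51.3 and 49.5% of all genes. Under scaling by library size alone the median of all genes itself moved by 0.22 and 0.17, and the calls that held were Atp2a1, Pln and Jph2 for the right atrium and Atp2a1 and Pln for the left. Trdn in the left atrium, which had no call, turned from -0.11 to 0.03 under that scaling.

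**Figure D2:**
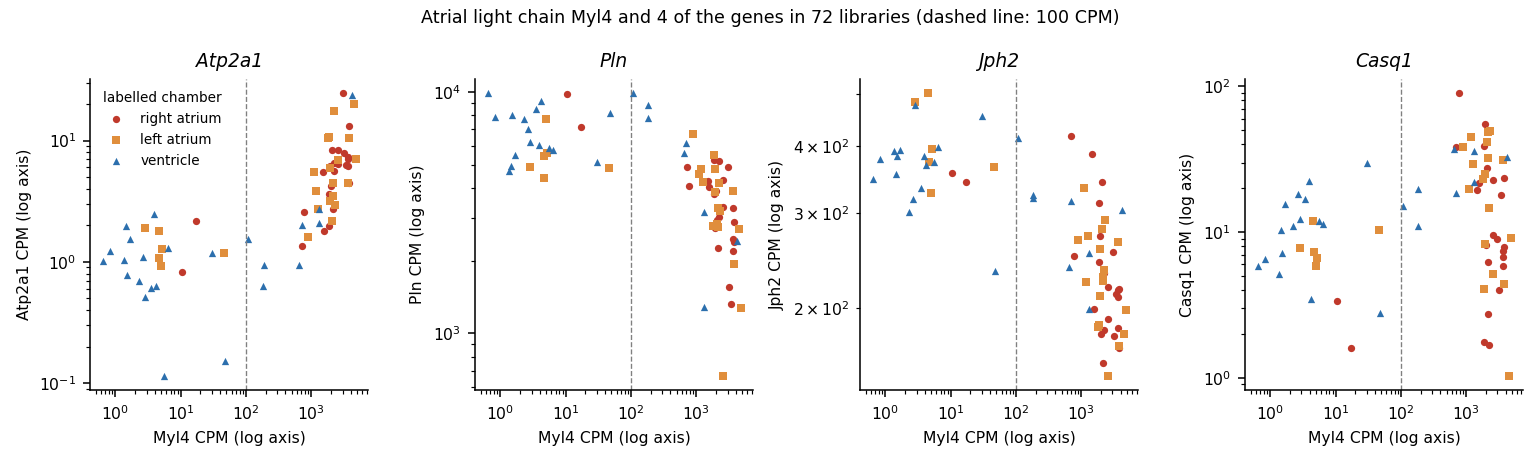
Atp2a1, Pln, Jph2 and Casq1 against Myl4 in each library, both in CPM on log axes, coloured by labelled chamber, with a dashed line at 100 CPM of Myl4. Atp2a1 rises and Pln and Jph2 fall with Myl4 (r = 0.74, -0.66 and -0.75 over 72 libraries).

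Atp2a1 and Casq1 are genes of fast skeletal muscle, and the marker list of that tissue was read beside them. Summed over 10 markers it had medians of 162 CPM in the right atrium, 109 in the left atrium and 36.1 in the ventricle, most of it Myl1, a fast-muscle light chain. Without Myl1 the sums were 18.2, 15.2 and 13.5 CPM, with ranges of 8.35 to 30.5, 8.13 to 31.9 and 6.14 to 25.0. Myh1 and Myh4 had medians of 4.17 to 4.58 CPM in the 3 chambers, with values up to 11.7, Actn3, Tnnt3 and Tnni2 reached at most 8.85, 7.93 and 6.88 CPM in a library and Mylpf 1.59, and Tnnc2 was at 0 in 17, 19 and 11 of the 24 libraries. Of the 10 markers 4, 6 and 7 had a median under 1 CPM in the right atrium, left atrium and ventricle. For Slc8a2 the neuron markers summed to medians of 19.5, 20.5 and 16.2 CPM, with a range of 6.98 to 229 CPM over libraries, and 8 of 10 had a median under 1 CPM in each chamber. The part of other cells in these 3 genes was not tested.

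The main question of the design was whether AHR loss or TCDD in utero left a mark on the adult heart. In 17 of the 18 comparisons with naïve mice (3 conditions, 2 sexes, 3 chambers; 3 against 3 libraries), none of the 10 genes passed an adjusted p of 0.05 in edgeR, with the lowest at 0.230. The share of all genes that passed there was 0%, except 0.0216% in the Ahr-/- female ventricle. Over all 18 comparisons 4 of the 180 gene-by-comparison pairs were called, all in the high-dose female ventricle, and 14 pairs (7.78%) had an unadjusted p under 0.05, against 9.68% of all genes pooled. The 3 libraries lay wholly above or below the naïve ones in 31 pairs (17.2%), against 15.6% of all genes. The median size of a change was 0.27 in log2, with a median SE of 0.348, over the 180 pairs.

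**Figure D3:**
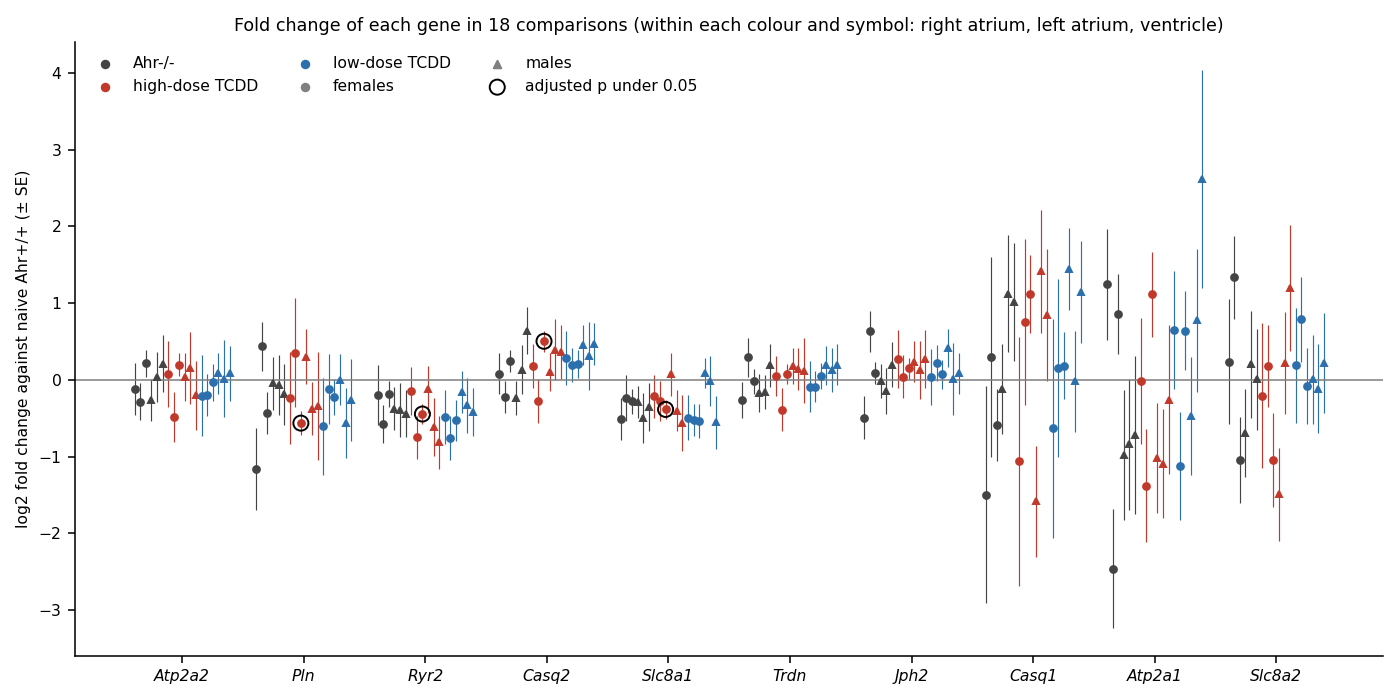
Log2 fold change against naïve mice of each of the 10 genes in the 18 comparisons, with bars of 1 SE and a ring around the 4 called pairs; colours give the condition and symbols the sex. Ryr2 is below 0 in all 18 and Slc8a1 in 16, and the low-count genes Atp2a1, Casq1 and Slc8a2 spread most widely.

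Messages of the release channel, the exchanger and the brake were lower in the ventricle of females exposed to high-dose TCDD. The message of the calcium store was higher. These are RNA counts and not protein. By western blot of hearts, the study reported more protein of the exchanger NCX in females exposed to either dose. It found no significant difference in the other calcium-handling proteins it tested. Casq2 stood at 1253, 1373 and 1390 CPM in the naïve libraries and at 2159, 1794 and 1822 in the high-dose ones. The groups did not overlap, and Casq2 rose by 0.50 ± 0.135 (log2 ± SE, edgeR adjusted p = 0.0180; 1925 ± 203 against 1339 ± 74.5 CPM, SD, n = 3). Pln stood at 8799, 9162 and 8483 CPM in naïve and at 6012, 7005 and 5118 in high-dose libraries. It was lower in all 3 and fell by 0.56 on the log2 scale (SE 0.159, adjusted p = 0.0219). Ryr2 read 3108, 3555 and 3641 CPM in naïve and 2574, 2631 and 2478 in high-dose libraries. The message of the release channel was therefore lower in 3 of 3, and fell by 0.45 (SE 0.136, adjusted p = 0.0315). Slc8a1 read 963, 884 and 870 CPM in naïve and 717, 732 and 661 in high-dose libraries, and fell by 0.39 (SE 0.120, adjusted p = 0.0334). All genes of this comparison moved widely: 23.7% were called, 12.2% higher and 11.4% lower, beside 4 of these 10. Markers of cell types moved in the same libraries. The 6 cardiomyocyte markers summed to 43503 to 51697 CPM (by library size) in naïve and 63617 to 80719 in high-dose libraries, and 5 of the 6 lay wholly above naïve. The 5 fibroblast markers summed to 1197 to 1770 against 947 to 1100, and 2 of the 5 lay wholly below. Of the 4 ventricular markers 2 lay above and 1 below, of the 4 smooth muscle markers 2 above, and of the 4 endothelial markers 1 above. The 5 atrial markers had 2 below (Sln and Nppa), and the 10 fast skeletal muscle markers 3 above and 2 below. Among the 10 neuron markers 1 lay above, and among the 4 adipocyte markers 1 below. The part of these in the 4 calls was not tested. At 0.0001, the threshold that the study applied to DESeq, none of the 10 passed in edgeR, against 0.0286% of all genes. The tests differ, so this does not repeat the study's analysis. The study reports lower mRNA of Slc8a2, Ryr2 and Pln in the ventricles of high-dose females.

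**Figure D4:**
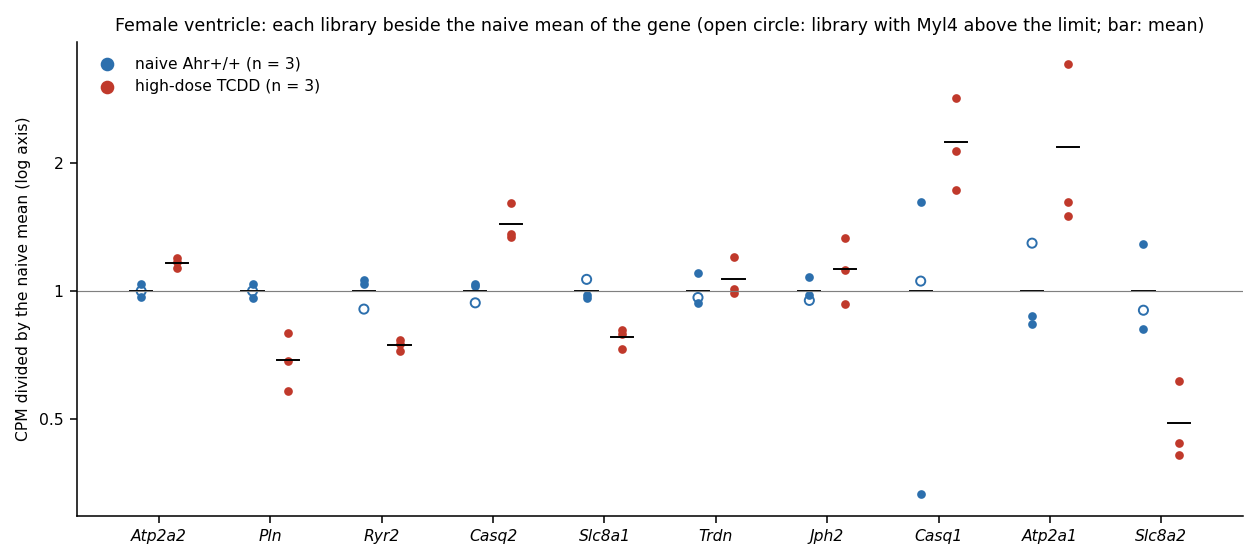
CPM of the 10 genes divided by the naïve mean of the gene, on a log axis, in the 3 naïve and 3 high-dose TCDD female ventricle libraries, with a bar at each group mean and an open circle for the library in doubt. Casq2 is higher, and Pln, Ryr2 and Slc8a1 are lower, in each of the 3 high-dose libraries than in each naïve library.

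Of the 6 other genes there, 4 did not overlap either but did not pass the test. The pump Atp2a2 read 19649, 20399 and 19018 CPM in naïve and 23460, 22245 and 23047 in high-dose libraries, a change of 0.20 (adjusted p = 0.377). Casq1 read 11.1, 3.49 and 17.0 against 22.4, 18.2 and 29.9 CPM (1.12, adjusted p = 0.168), and Atp2a1 0.940, 0.634 and 0.606 against 2.48, 1.09 and 1.18 CPM (1.11, adjusted p = 0.165). Slc8a2 read 0.940, 1.35 and 0.848 against 0.430, 0.639 and 0.457 CPM (-1.05, adjusted p = 0.233). Trdn and Jph2, the scaffold genes, overlapped. In all 8 of the 10 genes did not overlap, against 41.4% of all genes.

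These 4 calls depended on single libraries. Naïve library 35 is in doubt, with Myl4 at 193 CPM in a ventricle label, and without it Ryr2 alone was called, at -0.53 (adjusted p = 0.0430). Leaving out naïve library 36 or high-dose library 43 left no call, leaving out high-dose library 66 left Casq2 alone, and without naïve library 54 the 4 calls were Casq1, Casq2, Pln and Slc8a1. Scaled by library size alone, Casq2 was at 0.34 (adjusted p = 0.202), and Pln, Ryr2 and Slc8a1 were still called. Fitting all 4 conditions of that sex and chamber together gave 0 calls, with adjusted p from 0.0682 (Casq2) to 0.227. Casq2 and Pln passed when a trend with gene length was removed from each library, at 0.42 and -0.63, and Ryr2, at -0.18 (adjusted p = 0.387), and Slc8a1, at -0.12 (adjusted p = 0.536), did not. When a trend with GC content was removed instead, Ryr2, at -0.46, and Casq2, at 0.61, passed, and Pln, at -0.09 (adjusted p = 0.732), and Slc8a1, at 0.03 (adjusted p = 0.901), did not.

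Removing the length or GC trend also moved directions in the other comparisons. Ryr2 and Slc8a1 have the longest exonic sequence of the 10 genes, 18.23 and 18.62 kb, against 1.847 to 7.852 kb in the rest; their coding sequence is 14.949 and 2.957 kb. Ryr2 was below naïve in all 18 comparisons as deposited, with log2 changes from -0.82 to -0.13 (median -0.43). The 18 comparisons share 6 sets of naïve libraries, so the number is not 18 independent signs. With the length trend removed Ryr2 was below in 14, from -0.44 to 0.20 (median -0.09). Slc8a1, below in 16 as deposited (median -0.37), was below in 10 with the length trend removed (median -0.01). Pln was below in 15 as deposited and in 5 with the GC trend removed, and Jph2 turned from 3 below to 15 below. The cause of these moves was not tested. Casq2 was higher in 15 of the 18 as deposited, in 14 with the length trend removed and in 15 with the GC trend removed.

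**Figure D5:**
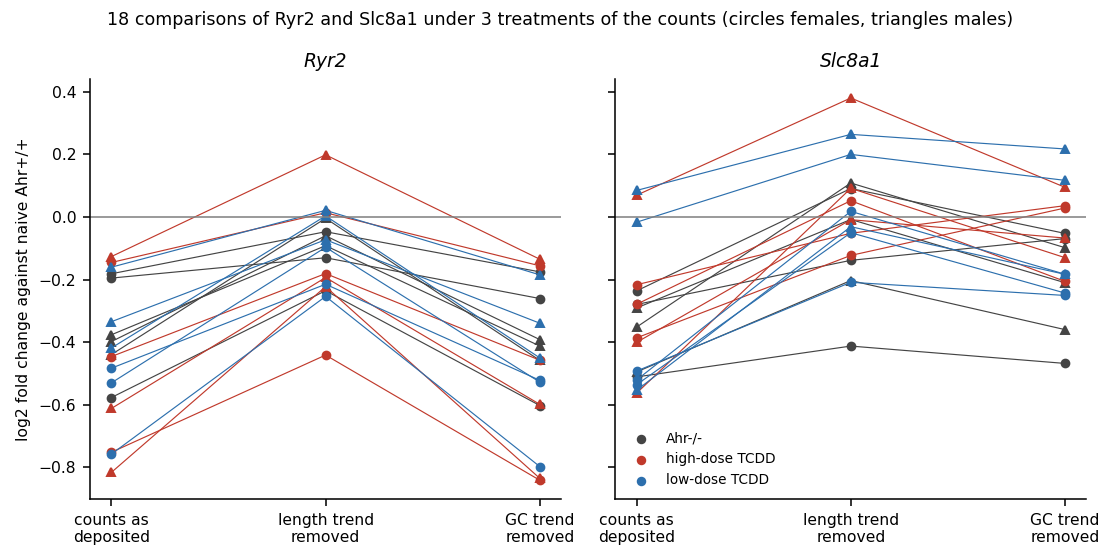
Log2 fold change of Ryr2 and Slc8a1 in the 18 comparisons with naïve mice, as deposited and with the trend in gene length or in GC content removed. Without the length trend the median of Ryr2 moves from -0.43 to -0.09 and that of Slc8a1 from -0.37 to -0.01.

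The release channel was the gene that most often lay wholly below naïve. Ryr2 did so in 7 comparisons: the Ahr-/- female left atrium, the high-dose female left atrium and ventricle, the high-dose male ventricle, the low-dose female left atrium and ventricle, and the low-dose male left atrium. The 3 female left atrium comparisons share naïve libraries of 2937, 3216 and 2905 CPM, against which all 9 libraries of the other conditions were lower. High-dose female left atria read 2119, 1794 and 1355 CPM (-0.75, adjusted p = 0.592), low-dose ones 1228, 2379 and 1719 (-0.76, adjusted p = 0.230), and Ahr-/- ones 1536, 2046 and 2495 (-0.58, adjusted p = 0.363; the first and second of these libraries are in doubt, and the change was -0.27 without them). In libraries 1 to 48 alone the changes were -0.66 (high dose, adjusted p = 0.160) and -0.80 (low dose, adjusted p = 0.476). The low-dose male left atrium uses 2 libraries in doubt, 51 and 69, and its change, -0.33, was -0.18 without them (adjusted p = 0.980). The high-dose male ventricle read 1669, 2037 and 1475 CPM against 2982, 3602 and 2478 in naïve males, a change of -0.82 (adjusted p = 0.539). Without its libraries in doubt, naïve 53 and high-dose 65, that change was -0.87 (adjusted p = 0.0487), on 2 libraries a group. The share of all genes that passed in that fit is not given here.

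Of the exchangers, Slc8a1 lay wholly below naïve in 6 comparisons: the Ahr-/-, high-dose and low-dose female ventricle, the Ahr-/- male right atrium, the high-dose male left atrium and the low-dose female left atrium. Without naïve library 35 the change was -0.24 in the Ahr-/- and -0.49 in the low-dose female ventricle, and without libraries 51 and 63 it was -0.36 in the high-dose male left atrium. Low-dose female ventricles read 520, 839 and 569 CPM against 963, 884 and 870 (-0.54, adjusted p = 0.239), and low-dose female left atria 444, 543 and 408 against 589, 680 and 742 (-0.52, adjusted p = 0.2498). Slc8a2 rested on 2 to 111 counts per library, and its changes ran from -1.49 to 1.33. It read 0.465, 0.689 and 0.424 CPM in the high-dose male right atrium against 2.12, 0.715 and 1.65 in naïve (-1.49, adjusted p = 0.907), and 2.91, 1.71 and 1.12 in the Ahr-/- female left atrium against 0.574, 0.900 and 0.780 (1.33, adjusted p = 0.359; 0.57 without libraries 23 and 24, in doubt, on 1 Ahr-/- library).

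The store Casq2 lay wholly above naïve in 4 ventricle comparisons: the Ahr-/-, high-dose and low-dose females, which share naïve libraries, and the low-dose males. Ahr-/- female ventricles read 1577, 1520 and 1667 CPM (0.25, adjusted p = 0.572) and low-dose ones 1658, 1477 and 1644 (0.21, adjusted p = 0.569) against naïve 1253, 1373 and 1390. Without naïve library 35 these changes were 0.20 and 0.16. All 3 low-dose male ventricle libraries, at 1645, 1431 and 1647 CPM against 937, 1358 and 1037, are in doubt. Jph2 and Trdn did not separate in any comparison.

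The largest change of Atp2a1 with an unadjusted p under 0.05 was in the Ahr-/- female left atrium, at -2.46 (adjusted p = 0.359), where the libraries read 1.18, 1.28 and 3.49 CPM against 10.5, 20.1 and 2.73. Both lower values are from libraries 23 and 24, which are in doubt with Myl4 at 48.7 and 5.09 CPM, and Jph2 was higher there by 0.63 (adjusted p = 0.363). Without them the change of Atp2a1 was -1.66 and that of Jph2 0.09, on 1 Ahr-/- library, assumed to vary like the naïve ones. Its highest change, 2.61, was in the low-dose male ventricle, where all 3 low-dose libraries are in doubt. Casq1 stood highest relative to naïve in the low-dose male right atrium, at 27.4, 22.6 and 55.0 CPM against 6.21, 8.98 and 23.6 (1.44, adjusted p = 0.941), and overlapped.

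Shares of all genes whose groups did not overlap were, beside these counts, 17.5% in the Ahr-/-, 15.4% in the high-dose and 24.4% in the low-dose female left atrium, where 3, 2 and 3 of the 10 genes did not overlap. They were 14.4% in the Ahr-/- and 25.9% in the low-dose female ventricle (5 and 3 genes). In males they were 11.6% in the Ahr-/- and 11% in the high-dose right atrium (1 gene each), 17.9% in the high-dose and 7.25% in the low-dose left atrium (1 and 2 genes), and 16.7% in the high-dose and 20.2% in the low-dose ventricle (1 gene each). Of the 31 pairs without overlap 24 use at least 1 library in doubt and 7 use none. The 10 genes were thus near the share of all genes in most comparisons. They were further from it in the Ahr-/- female ventricle (5 genes against 14.4%) and in the high-dose female ventricle, described above. Both comparisons use naïve library 35, which is in doubt. The counts are read no further.

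Whether an effect differed between the sexes was tested by the interaction of sex and condition, in 9 models of 12 libraries. None of the 90 pairs of the 10 genes passed (0% called in edgeR; lowest adjusted p = 0.873), nor did any gene. Only 1 pair had an unadjusted p under 0.05, against 2.53% of all genes: Slc8a2 under high dose in the ventricle, at -2.25 (adjusted p = 0.952). Each of these models uses libraries in doubt. The right atrium and ventricle models hold libraries whose sex genes read as the other sex, naïve 50 and naïve 53 among them. In the left atrium models Myl4 of naïve library 51 went against the chamber label. With such labels the test cannot decide whether an effect differed between the sexes. The female calls above are not shown to be particular to females.

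Other genes of calcium handling were read from 4 lists of 56 named genes, of which 54 were in the table. In the high-dose female ventricle 47 were tested, 7 passed higher and 4 lower (23.4%, near the 23.7% of all genes), and the median change was -0.03 against 0.01 over all genes. Among the release and couplon genes 4 of 17 were higher and 1 lower, among uptake genes and their regulators 3 of 9 higher, among kinases and anchors 2 of 9 lower, and among surface and mitochondrial transporters 1 of 12 lower. The smallest adjusted p belonged to Cav3, caveolin of muscle, which rose by 1.53 (adjusted p = 0.000133; 117 against 39.7 CPM), and Calm3, a calmodulin gene, rose by 1.12 (adjusted p = 0.00188). Ppp1ca, a catalytic subunit of protein phosphatase 1, rose by 0.61, Atp2a3, which encodes SERCA3, by 0.60 and S100a1, a calcium sensor that binds the pump and the release channel, by 0.48. Cacna2d1, an auxiliary subunit of the L-type channel, fell by 0.88 (adjusted p = 0.00119; 306 against 555 CPM), Jph1 by 0.49, Pde3a, a phosphodiesterase, by 0.46 and Camk2d, the kinase that acts on RYR2 and phospholamban, by 0.38. None of the 54 passed in the other 17 comparisons. Between chambers 9 passed higher and 13 lower in the right atrium, and 8 and 9 in the left, than in the ventricle, which is 40.7% against 31.8% of all genes and 31.5% against 18.9%.

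Over the 72 libraries and 13909 genes, the patterns most like each gene, by Pearson's r of log2 CPM, were as follows. For Ryr2 they were Zyg11b (0.90) and Lpgat1 (0.88), and for Pln 2310002L09Rik and Asb14 (0.94 each). Atp2a1 went with Olfm1 and Gja5 (0.87 each), Gja5 encoding connexin 40 of the atria and conduction system, and Jph2 with Slc12a7 (0.94) and Ipo13 (0.93). Atp2a2 ran with Trak1 (0.89) and Fsd2 (0.88), Casq2 with Ak1 and Fkbp4 (0.87 each), Slc8a1 with Synj2bp (0.84) and Osbpl8 (0.83), and Trdn with Adssl1 (0.83) and Chchd3 (0.82). Casq1 went with Mybpc2 (0.80), a myosin binding protein of fast muscle, and Cilp (0.75), while Slc8a2 had no close likeness, at 0.60 for Tagln and Sod3. Within the group Ryr2 and Slc8a1 had r = 0.76. All libraries share chambers, depth and a trend with gene length, so these are descriptions.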

How the data were processed

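Total RNA of 72 microdissected chambers was made into poly-A libraries and sequenced as single reads by the authors, with CASAVA 1.8, TopHat and the mm10 build per the submitters' processing notes. The deposited values are raw counts per gene, over coding regions per the study's methods; annotation release, strand and treatment of multi-mapping reads are not given in the sources used here. Differences were tested here with edgeR 4.0.16 (R 4.3.3): filterByExpr (minimum count 10, minimum total 15), TMM scaling, robust quasi-likelihood fit and Benjamini-Hochberg adjustment over all genes tested, at 0.05. CPM values are TMM-scaled over the 72 libraries, except those of Ahr, of the marker lists and of Myl4 where it flags a library. Log2 CPM used a prior count of 2. The authors used DESeq, separately by sex, at 0.0001. Each condition was compared with naïve libraries of the same sex and chamber. Library numbers are those of the labels. A library is in doubt where Xist and Y-linked genes, or Myl4 at 100 CPM before TMM scaling, go against its label; no library was relabelled. Replicates differed from each other (lowest mean chi-square per gene 8.24), so each was counted as 1 sample. DESeq2 1.42.0 was an alternative, and trends with exonic length and GC were removed as a spline with 5 degrees of freedom. Fits were also run on simulated counts, drawn independently for each library. The simulation held no library series, no labels in doubt and no linked chambers, so it cannot show how these act on the calls. The 10 genes, the lists and the tests were chosen with earlier results of these data known. Named besides the 10 are listed pathway genes that passed, at most the 5 of smallest adjusted p in each direction, and the 2 genes most like each member with a mean of at least 1 CPM. P-values of the comparisons with naïve mice rest on how far the 3 libraries under one label differ. That scatter is not of mice alone, since each group mixes the first and the later library series. In 14 groups it also includes libraries in doubt. The chamber and interaction fits pool more groups, and the chamber fit takes the chambers of a heart as independent.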

Additional observations from a re-analysis of the deposited data

How the results depend on the processing

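The number of the 10 genes called in the high-dose female ventricle, 4 in the main analysis, was 2 with the length trend removed, 1 with both sexes in one fit, with libraries 1 to 48 only or without the libraries in doubt, and 0 with all 4 conditions in one fit or at 0.0001. Leaving out a library in turn gave 0 to 4 calls there, and 0 to 1 in the Ahr-/- female ventricle, where Pln was called without Ahr-/- library 39. In the Ahr-/- female left atrium, with 0 calls, DESeq2 gave 1 (Atp2a1) and libraries 1 to 48 gave 4, with 0.730 and 18.4% of all genes; the only Ahr-/- libraries in the latter fit are 23 and 24, both with Myl4 under 100 CPM. In the high-dose male ventricle, with 0 calls, both sexes in one fit, libraries 1 to 48 and leaving out the libraries in doubt each gave 1, and in the low-dose male ventricle libraries 1 to 48 gave 1. Between left atrium and ventricle the 5 calls became 0 at 0.0001 or in naïve libraries only, 2 with scaling by library size, and 9 without the libraries in doubt. Between right atrium and ventricle the 6 calls became 1 at 0.0001, 3 with scaling by library size and 0 in naïve libraries only. The direction of Slc8a1 turned in the high-dose female ventricle with the GC trend removed (0.029) and in the low-dose female left atrium with the length trend removed (0.018); the cause was not tested. No fit without the libraries in doubt could be made for the high-dose female right atrium, the low-dose male ventricle and the low-dose ventricle interaction. A term for the library series gave 5 calls in the high-dose female ventricle (Casq1 added, at 1.22 with adjusted p = 0.0380), 0 in the other 17 comparisons, and 6 and 5 calls in the right and left atrium against the ventricle. Except where printed, the share of all genes that passed in these fits is not given here. The counts therefore describe only how calls moved with the processing. No paired analysis was possible because each library carries its own number and the labels link no chambers of a heart.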
